A study of Mus musculus with 11 samples.

Results

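The comparison described here is between mouse livers taken 3 weeks and 2 weeks after c-MET and β-catenin were delivered together. It uses 8 of the 11 liver RNA-seq libraries of the series, namely the 4 columns of the expression table labelled 3 weeks and the 4 labelled 2 weeks. Each library came from 1 mouse, and no mice were pooled. All mice were GS WT males on a mixed 129/Ola and C57BL/6 background and were injected when 7 weeks old. The 8 oncogene mice received pT3-EF1α-c-MET, pT3-EF1α-Myc-ΔN90–β-catenin and the transposase plasmid pCMV-SB10 by hydrodynamic tail vein injection, which pushes plasmid DNA into the liver so that Sleeping Beauty can insert it into the genome. The other 3 livers were vector controls, which the labels place at 0 weeks, and they enter only as the background level of the genes named. Mice were killed at about 2 pm after 5 hours of fasting. The question was which gene groups moved as the tumour model went from 2 weeks to 3 weeks.

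The model sets limits on what the values stand for. The c-MET plasmid carries the human gene under the EF1α promoter, so the mouse Met gene may not report on it. Whether reads of the human gene were counted under mouse Met was not tested. ΔN90–β-catenin lacks the N-terminal stretch through which the protein is marked for destruction. Only some hepatocytes take up the plasmids, and the tissue was bulk liver, although the labels give hepatocyte as the cell type. Hepatocyte markers were by far the most abundant of the cell type lists, with Alb at 32940 to 47590 RPKM in the 8 livers. Markers of macrophages, endothelial cells and stellate cells were present in every liver as well, for example Lyz2 at 28.8 to 72.0 RPKM, Clec4g at 41.9 to 56.1 RPKM and Dcn at 40.4 to 65.8 RPKM. The libraries therefore held RNA of several cell types. In such tissue, fewer cells of a type and less RNA per cell cannot be told apart.

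Hepatocytes divide their work along the axis from portal to central vein. Cells near the portal vein make urea and glucose, whereas cells around the central vein, where Wnt signals keep β-catenin active, make glutamine through glutamine synthetase (Glul) and carry much of the cytochrome P450 metabolism. c-MET is the receptor of hepatocyte growth factor and signals through RAS and MAPK, whose early response includes the transcription factors Fos, Junb and Egr1 and the feedback phosphatases of the Dusp family.

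Values are RPKM, read counts scaled by gene length and library total, as the authors deposited them, and differences are 3 weeks minus 2 weeks on the scale log2(RPKM + 0.5). Where a pair of means is given with SD, the first is that of the 2-week livers. The test covered the 11259 genes whose RPKM averaged 0.5 or more in the 8 livers. The read totals inferred from the spacing of low values were 17670000, 27040000, 20830000 and 18470000 reads at 2 weeks and 20970000, 20630000, 17660000 and 18970000 reads at 3 weeks. A 1000-base gene hit by 3 reads would then be listed at 0.111 to 0.170 RPKM, a floor that covers counting error only.

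The 8 libraries were not alike in scale, and 2 of them stood apart from the rest. The median gene stood at 2.63, 2.62, 2.76 and 2.84 on the log2 scale in the 2-week livers and at 2.84, 2.92, 2.82 and 2.85 in the 3-week livers, against 2.56 to 2.6 in the vector controls. Replicates 1 and 2 of the 2-week group thus lay near the controls. Their mouse numbers also belong to a series of their own, whereas 2-week replicates 3 and 4 share a number series with all 3-week mice. The difference in library median was 0.145 (exact permutation test, two-sided, p = 0.0571, n = 4 and 4) and 0.0599 without 2-week replicates 1 and 2. The 10 most abundant genes held 29.1%, 28.6%, 25.3% and 25.1% of the summed RPKM at 2 weeks and 24.5%, 23.9%, 24.2% and 24.7% at 3 weeks. Every 3-week liver lay below every 2-week liver in this share (exact permutation test, two-sided, p = 0.0286, the smallest that 70 splits allow). In percentage points the difference was −2.7 with all livers and −0.885 without 2-week replicates 1 and 2. Differences below are therefore given as deposited and with each library centred on its median, or as the centred value alone, and gene groups also without these 2 livers. What sets them apart was not tested.

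**Figure D1:**
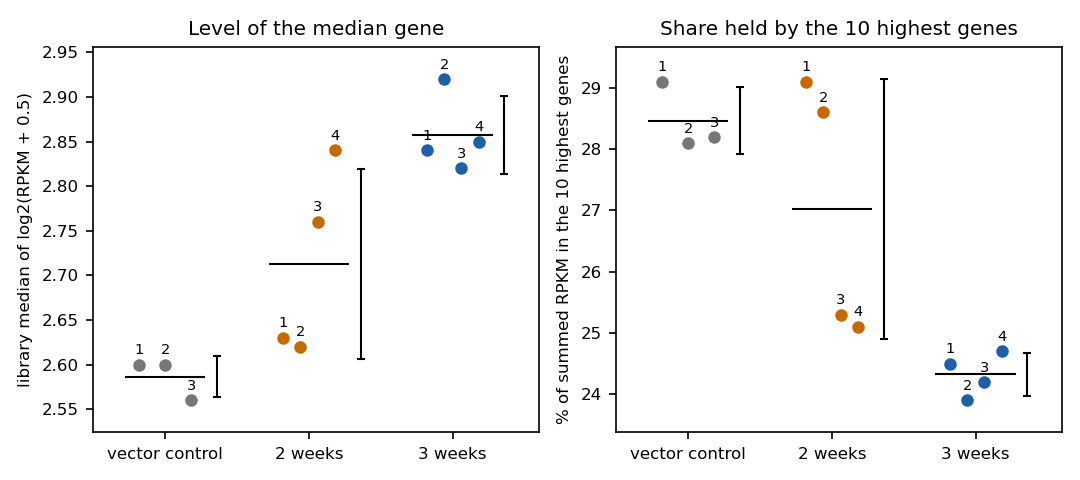
Left, the median over all tested genes of log2(RPKM + 0.5) in each liver. Right, the percentage of the summed RPKM held by its 10 most abundant genes. Points are single livers numbered by replicate, horizontal lines are group means and vertical bars are 1 SD (3 vector control, 4 2-week and 4 3-week livers). At 2 weeks, replicates 1 and 2 have medians of 2.63 and 2.62, next to the controls, and replicates 3 and 4 have 2.76 and 2.84.

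At 3 weeks, the periportal, mitosis, cytochrome P450 and glycolysis lists were lower by median than at 2 weeks, relative to all tested genes. So were the list of MAPK feedback and immediate early genes and the 4 tested of 10 cholangiocyte and progenitor markers. The summed level of all 10 markers overlapped between the time points. The 9 tested replication-dependent histones and the 11 pyrimidine synthesis genes were higher by median. After centring, 6 and 7 of these genes had a difference above 0. The relative shift of such a group was between 0.06 and 0.31 on the log2 scale in either direction, and it exceeded the spread between livers both with and without 2-week replicates 1 and 2. Acute phase genes were lower and zinc finger genes higher by the same measure, but the difference of their mean levels was within the spread without these 2 livers. The pyrimidine list stood at the level of the other genes without 3-week replicate 1. β-catenin targets and the genes of the urea cycle showed no shift beyond that spread. The spread is 1 SD of single livers, which some groups would exceed by chance, and how many was not tested. The comparison without the 2 livers reuses the other livers and is not independent. Single genes with livers that did not overlap included Prelid2, Btg2, Junb, Nr4a1 and Igfbp1, which were lower at 3 weeks, and Cad, Ctps, Nrep, Rasl11b and Car4, which were higher.

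None of these single genes passed the test across all genes. In limma, 0 of 11259 genes had an adjusted p under 0.05 (0% as deposited and 0% centred), and the smallest adjusted p was 0.333 as deposited and 0.299 centred. At an unadjusted p under 0.05 there were 1153 genes as deposited and 605 centred, where 563 would be expected by chance. As deposited, 1057 of these were higher at 3 weeks (9.39% of tested genes) and 96 were lower (0.853%). After centring, 218 were higher (1.94%) and 387 were lower (3.44%). The lopsided count as deposited went with the shift in library medians, since 76.7% of all tested genes had a difference above 0 as deposited and 44.3% after centring. The difference of 3640 genes changed sign between these scalings. Most differences were small, with 75.3% of genes within 0.20 of 0 after centring, 26 genes above 1 and 39 below −1. The median standard error of a single gene's difference was 0.15 as deposited and 0.14 centred. The p-values measure the spread between mice, and 1 library per mouse does not separate it from the error of a library.

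Leaving livers out let few genes pass. Without 3-week replicate 3 there was 1 gene, Prelid2, and without 2-week replicate 4, after centring, there was 1, Btg2. Without 2-week replicates 3 and 4, 21 genes passed, all higher at 3 weeks, and without 2-week replicates 1 and 2 there were 0. The 21 came from a comparison of the 3-week livers with the livers whose medians lay near the controls. The median difference over all tested genes was 0.19 in that comparison, 0.12 with all 8 livers and 0.06 without 2-week replicates 1 and 2.

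Among the genes tested, 688 had all 4 values at 3 weeks above all 4 values at 2 weeks (6.11%) and 39 had all 4 below (0.346%). After centring these were 144 (1.28%) and 205 (1.82%). In both scalings, 143 genes lay above and 39 below. For a gene without a difference, a share of 0.0286 of the 70 possible splits parts the time points, counting both directions. The centred shares lie near this, so livers that do not overlap do not by themselves mark a gene as changed.

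Gene groups were described by the median of their members' log2 differences minus the median over all tested genes, here called the relative shift. It is the same with and without centring. The level of a group in a liver is the median over its members of the centred log2 value minus that member's mean over the 8 livers. The spread beside a shift is the pooled SD of this level over the livers of a time point. Of 43 groups, 11 had a relative shift larger than this SD both with all 8 livers and without 2-week replicates 1 and 2. For 4 groups the shift was larger with all livers only, and for 28 it was smaller with all livers. The SD is that of a group's level per liver, so the difference between the mean levels of the time points was set against it as well. Of the 11 groups, 8 exceeded it in this way with and without the 2 livers, the acute phase and zinc finger genes only with all livers, and the female-biased genes in neither case. Of the other groups, gluconeogenesis genes alone exceeded it by level with and without the 2 livers, although not by shift with all livers. No group was given a p-value, and the shift of a group is a description of these 8 livers. An SD of single livers is a low bar for a difference of means, and the number of groups beyond it by chance was not tested.

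**Figure D2:**
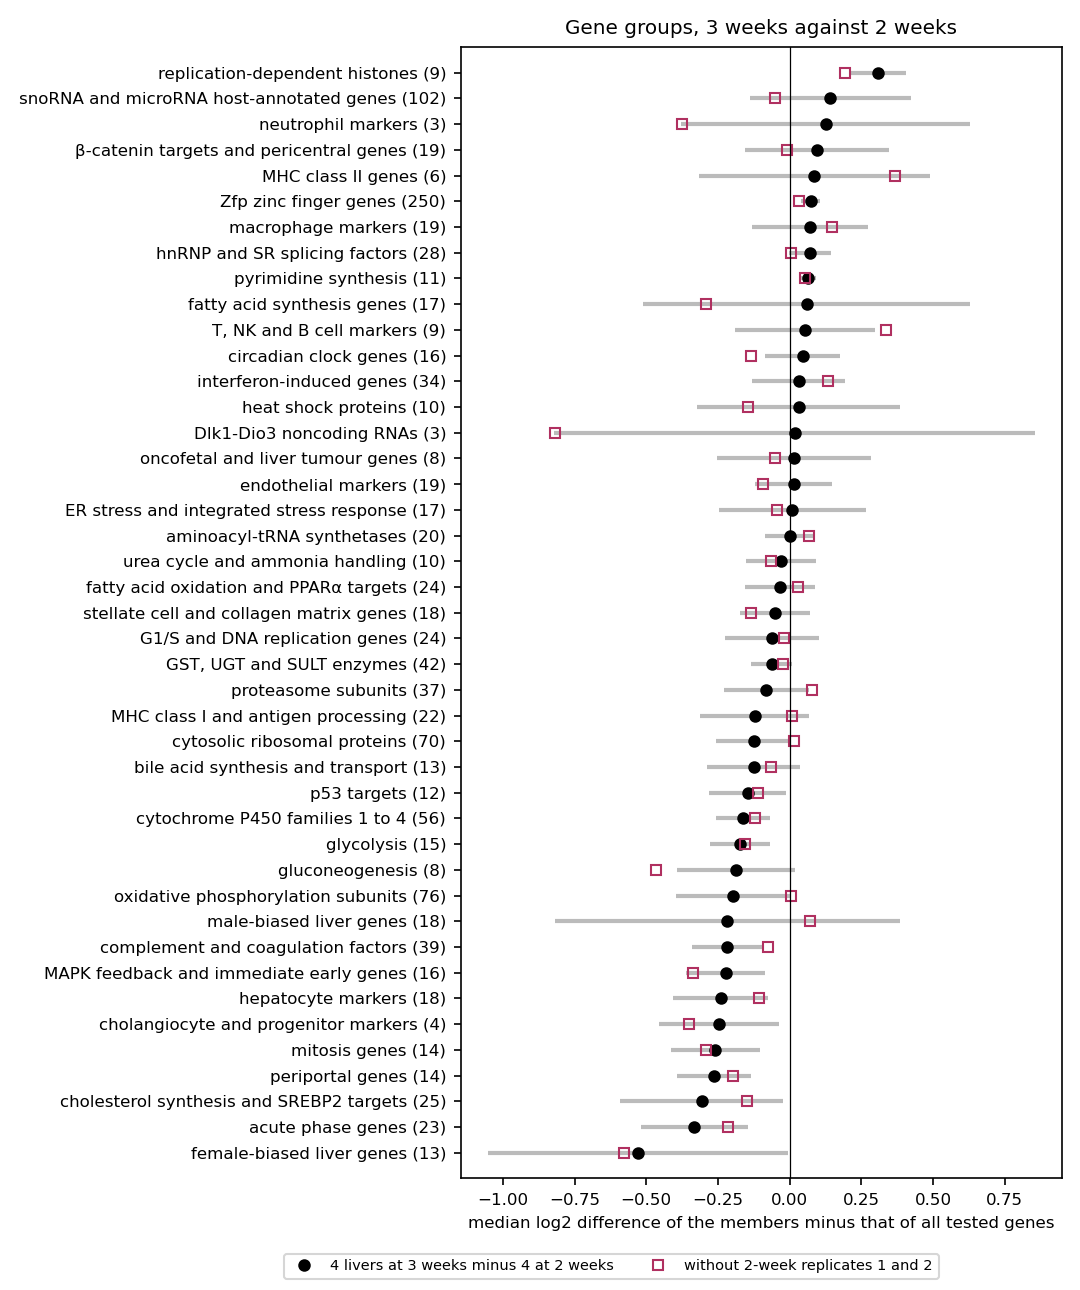
Relative shift of 43 gene groups, on the horizontal axis, as the median log2 difference between 3 and 2 weeks of the members minus that of all tested genes, with the number of tested members in brackets. Black points use 4 livers at each time, open squares leave out 2-week replicates 1 and 2, and grey bars are 1 pooled SD between livers of the same time point. Histones are at 0.31 and 0.19, and oxidative phosphorylation subunits move from −0.20 to 0.00.

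The 2 sides of liver zonation were measured with a periportal and a pericentral list. The 14 periportal genes had a relative shift of −0.26 (spread 0.13), and −0.20 without 2-week replicates 1 and 2. As deposited 13 of 14 were lower at 3 weeks and after centring all 14 were. Of all tested genes, 76.7% had a difference above 0 as deposited and 44.3% after centring. In the 2-week livers the level of the list was 0.31, 0.05, 0.22 and −0.02, and in the 3-week livers it was −0.03, −0.24, −0.20 and −0.09. The time points did not overlap, although 2-week replicate 4 and 3-week replicate 1 nearly met. Hsd17b6, a steroid dehydrogenase, was the lowest member with a centred difference of −0.73, and Sds, which breaks down serine, was the highest with 0.00. Cyp2f2, a standard periportal marker, was 1311, 899, 1056 and 1090 RPKM at 2 weeks and 1034, 974, 866 and 973 RPKM at 3 weeks. Its centred difference was −0.31 ± 0.14 (SE), and its livers did not overlap after centring but did as deposited. Pck1, the enzyme that commits carbon to glucose synthesis and the most abundant periportal gene, was 892, 1386, 1808 and 1325 RPKM at 2 weeks and 646, 1745, 991 and 1096 RPKM at 3 weeks, so its livers overlapped. The members lower at an unadjusted p under 0.05 numbered 1 in either scaling, against 0.853% of all tested genes as deposited and 3.44% centred, and 0 passed after adjustment.

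The list of β-catenin targets and pericentral genes, 19 of 21 tested, did not mirror this. Its relative shift was 0.10 (spread 0.25) and −0.01 without 2-week replicates 1 and 2. As deposited 18 of 19 members were higher at 3 weeks, and after centring 10 were. Of the general Wnt feedback genes, Nkd1 and Axin2 stood near the upper end of the list and Notum, Znrf3 and Lgr5 near or below 0, at −0.06, −0.04 and −0.12 centred. Nkd1, an inhibitor of the pathway, was 3.25, 3.77, 5.99 and 5.73 RPKM at 2 weeks and 5.32, 12, 5.51 and 9.35 RPKM at 3 weeks, against 0.846 to 1.20 RPKM in the controls. Its centred difference was 0.54 ± 0.24 (SE). Axin2, the scaffold of the destruction complex and itself a target, was 3.17 ± 1.19 and 4.37 ± 1.09 RPKM (SD, n = 4), against 1.36 ± 0.174 RPKM (SD, n = 3) in the controls. Its difference was 0.43 as deposited and 0.28 centred (limma, adjusted p = 0.510 and 0.880). Oat, which makes glutamate from ornithine in pericentral cells, had a centred difference of 0.43 ± 0.28 (SE).

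Glutamine synthetase and the pericentral cytochromes stood closer to the other genes. Glul was 476, 613, 889 and 788 RPKM at 2 weeks and 529, 1124, 595 and 724 RPKM at 3 weeks. Its livers overlapped, and its difference was 0.08 as deposited and −0.06 centred. Cyp2e1, the most abundant member, was 3990 ± 289 and 4350 ± 223 RPKM (SD, n = 4), a difference of 0.13 as deposited and −0.02 centred. The lowest member was Slc13a3, a carboxylate transporter, at −0.16 centred. In 2-week replicate 1 the level of the list was −0.40, the lowest of all 8. The highest was 3-week replicate 2, at 0.37, where Glul, Nkd1 and Axin2 all had their highest values. Apart from this liver, the values at 3 weeks lay between −0.20 and 0.16.

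Ctnnb1, which encodes β-catenin and whose reads may include those of the transgene, was 62.8, 81.2, 83.0 and 80.2 RPKM at 2 weeks and 80.8, 84.5, 81.5 and 85.1 RPKM at 3 weeks. The difference was 0.12 as deposited and −0.03 centred, and the low value was that of 2-week replicate 1. Mouse Met was 13.7 ± 1.40 and 14.6 ± 1.76 RPKM (SD, n = 4), and its livers overlapped.

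The urea cycle turns ammonia into urea, mainly in periportal cells. The 10 tested genes of the cycle and of ammonia handling, of 12 listed, had a relative shift of −0.03 (spread 0.12), and −0.06 without 2-week replicates 1 and 2. As deposited 8 were higher and 2 lower at 3 weeks, and centred 2 were higher and 8 lower, so the direction of the list follows the scaling. Cps1, the first step, was 589 ± 144 and 614 ± 103 RPKM (SD, n = 4), a difference of 0.08 as deposited and −0.07 centred. Otc was 289, 261, 261 and 270 RPKM at 2 weeks and 283, 235, 261 and 269 RPKM at 3 weeks, a difference of −0.05 as deposited and −0.19 centred. Asl, which releases fumarate, was 409 ± 110 and 437 ± 66.5 RPKM (SD, n = 4), with a difference of 0.12 as deposited and −0.03 centred. The groups overlapped for all 3 genes. Glud1, which releases ammonia from glutamate, and Nags, which makes the activator of Cps1, were the lowest and the highest member at −0.20 and 0.10 centred. Ass1 was below the filter, with mean values of 0.249 and 0.133 RPKM.

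The carbamoyl phosphate and aspartate that feed this cycle are also the start of pyrimidine synthesis. All 11 listed pyrimidine genes were tested, and their relative shift was 0.06 (spread 0.03), and 0.05 without 2-week replicates 1 and 2. At an unadjusted p under 0.05, 4 members were higher as deposited and 2 were centred, against 9.39% and 1.94% of all tested genes. In either scaling 2 members lay above all 2-week livers, against 6.11% of all tested genes as deposited and 1.28% centred. Cad, the enzyme of the first 3 steps, was 1.29, 2.05, 2.26 and 2.45 RPKM at 2 weeks and 3.03, 3.33, 2.90 and 3.21 RPKM at 3 weeks, against 1, 1.79 and 1.15 RPKM in the controls. Every 3-week liver lay above every 2-week liver, and the difference was 0.55 ± 0.17 (SE) as deposited and 0.41 ± 0.14 (SE) centred (limma, adjusted p = 0.481 and 0.875; 0.0788 to 0.999 over the alternatives). Ctps, which makes CTP from UTP, was 1.49, 1.52, 2.36 and 2.86 RPKM at 2 weeks and 3.00, 3.48, 4.31 and 3.82 RPKM at 3 weeks. Its difference was 0.73 ± 0.19 (SE) as deposited and 0.58 ± 0.16 (SE) centred (limma, adjusted p = 0.475 and 0.869; 0.0548 to 0.999 over the alternatives). For both genes 2-week replicates 3 and 4 stood between the other 2-week livers and the 3-week livers, and without replicates 1 and 2 the differences as deposited were 0.34 and 0.41. The remaining members were nearer to the other genes, from Ctps2, a second CTP synthase, at −0.26 centred to Umps, which completes UMP, at 0.06, apart from the kinases Uckl1 and Uck2 at 0.22 and 0.28.

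The 8 tested oncofetal and liver tumour genes, of 12 listed, had a relative shift of 0.02 (spread 0.27), and −0.05 without 2-week replicates 1 and 2. Afp, the albumin-like protein of the fetal liver, was 1.95, 3.24, 5.91 and 5.45 RPKM at 2 weeks and 2.17, 6.74, 3.39 and 5.01 RPKM at 3 weeks, against 0.293 to 0.449 RPKM in the controls. Both time points held livers near 2 RPKM and livers above 5 RPKM. Akr1c18, a progesterone-converting reductase and the most abundant member, ran from 2.61 to 7.47 RPKM at 2 weeks and from 1.95 to 11.5 RPKM at 3 weeks. Gpc3, H19, Igf2 and Dlk1 were below the filter. The 3 noncoding RNAs of the imprinted Dlk1-Dio3 region, Meg3, Rian and Mirg, had a relative shift of 0.02 (spread 0.84) and of −0.82 without 2-week replicates 1 and 2. Rian was 0.869, 1.89, 6.53 and 5.48 RPKM at 2 weeks and 2.36, 5.55, 2.75 and 3.33 RPKM at 3 weeks. The 2-week group thus held both the lowest and the highest livers, and replicates 1 and 2 were the low ones.

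Immediate early genes are switched on within minutes of a growth signal, and feedback genes such as those of the Dusp and Spry families then dampen MAPK signalling. The 16 tested genes of this list, of 22, had a relative shift of −0.22 (spread 0.14), and −0.34 without 2-week replicates 1 and 2. As deposited 10 were lower at 3 weeks, and centred 13 were. The level of the list in the 2-week livers was 0.14, −0.02, 0.01 and 0.39, and in all 3-week livers it was between −0.24 and −0.10, with no overlap. Junb, a subunit of the transcription factor AP-1, was 60.0, 27.8, 29.2 and 27.3 RPKM at 2 weeks and 19, 16.1, 7.33 and 10.8 RPKM at 3 weeks, against 13.9 to 16.3 RPKM in the controls. The 2-week livers lay above both other groups. The difference was −1.40 ± 0.32 (SE) as deposited and −1.55 ± 0.33 (SE) centred (limma, adjusted p = 0.458 and 0.680; 0.0660 to 0.998 over the alternatives). Fos, the partner of Junb, was 8.78, 0.9, 1.42 and 5.97 RPKM at 2 weeks and 0.592, 1.64, 0.676 and 0.353 RPKM at 3 weeks. It was high in 2-week replicates 1 and 4, and the groups overlapped. Egr1, a zinc finger factor of the same response, and Dusp1 had centred differences of −0.86 and −0.71 with overlapping groups. The feedback gene Dusp6 was 21 ± 3.17 and 19.2 ± 5.54 RPKM (SD, n = 4), a centred difference of −0.30. Myc and Dusp4 were within 0.05 of 0 after centring, and Phlda1, the most abundant member, was the highest at 0.16. Thus Fos, Junb and Egr1 carried the lowest values of the list, and the Spry genes lay closer to the other genes.

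Of 33 mitosis genes 14 were tested, and these had a relative shift of −0.26 (spread 0.15), and −0.29 without 2-week replicates 1 and 2. As deposited 11 of 14 were lower at 3 weeks, and centred 13 were. At an unadjusted p under 0.05, 0 were lower as deposited and 4 centred, against 0.853% and 3.44% of all tested genes, among them the checkpoint gene Mad2l1 at −0.51, the cyclin Ccnb2 at −0.48 and the kinase Cdk1 at −0.37. The levels were low, with Mki67, the usual marker of cycling cells, at 0.438, 0.583, 0.729 and 0.946 RPKM at 2 weeks and 0.421, 0.649, 0.483 and 0.602 RPKM at 3 weeks. The controls had 0.101 to 0.418 RPKM of it, and the 2 time points overlapped. The summed level of all 33 mitosis genes was 16.5, 19.3, 20.2 and 24.3 RPKM at 2 weeks, 12.8, 23.1, 14.2 and 19.9 RPKM at 3 weeks and 8.35 to 17.4 RPKM in the controls. Cenpa, a centromere histone, was the most abundant of them at 2.46 to 4.38 RPKM.

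Genes of the G1/S step and of DNA replication, 24 of 25 tested, had a relative shift of −0.06 (spread 0.16), and −0.02 without 2-week replicates 1 and 2, and so lay near the other genes. They did not move as a block. Cyclin D1, encoded by Ccnd1, was the highest member with 10.2, 12.5, 14.7 and 18.8 RPKM at 2 weeks and 17.9, 26.9, 18.1 and 24.3 RPKM at 3 weeks. Its centred difference was 0.48 ± 0.16 (SE), and only the highest 2-week liver overlapped with the 3-week group. The replication factor Gins2 was the lowest with −0.62 ± 0.21 (SE) centred, from 0.654, 1.21, 1.48 and 0.782 RPKM to 0.551, 0.373, 0.764 and 0.660 RPKM. Pcna, the sliding clamp of DNA polymerase, was 6.67 ± 0.942 and 7.65 ± 2.03 RPKM (SD, n = 4), a difference of 0.17 as deposited and 0.02 centred. The most abundant member was Mcm10, at 27.3 to 64.4 RPKM and at 43.9 to 54.3 RPKM in the controls.

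Of 14 p53 targets, 12 were tested, with a relative shift of −0.15 (spread 0.13), and −0.11 without 2-week replicates 1 and 2. In both scalings 5 were higher and 7 lower at 3 weeks, and 1 member lay apart in each direction. Of all tested genes, 6.11% lay apart above and 0.346% below as deposited, and 1.28% and 1.82% after centring. Btg2, an antiproliferative gene that also belongs to the early response, was 6.46, 7.01, 6.83 and 4.87 RPKM at 2 weeks and 2.89, 3.72, 3.31 and 3.01 RPKM at 3 weeks, against 2.31, 2.28 and 3.48 RPKM in the controls. All 2-week livers lay above all others, and the 3-week livers lay near the control level. The difference was −0.86 ± 0.14 (SE) as deposited and −1 ± 0.15 (SE) centred (limma, adjusted p = 0.458 and 0.407). Over the alternatives the adjusted p of Btg2 ran from 0.0451, after centring without 2-week replicate 4, to 0.949. Aen, a nuclease induced by p53, went the other way, from 7.37, 5.72, 7.16 and 7.26 RPKM to 8.76, 10.6, 8.56 and 8.89 RPKM, a difference of 0.40 as deposited and 0.25 centred (limma, adjusted p = 0.481 and 0.875). Cdkn1a and Mdm2, the best known targets, had centred differences of 0.01 and 0.09.

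The replication-dependent histones had a relative shift of 0.31 (spread 0.10), the highest of all groups with all 8 livers. Without 2-week replicates 1 and 2 it was 0.19, below that of MHC class II genes and of T, NK and B cell markers. Their transcripts normally end in a stem-loop and carry no poly(A) tail. Only 9 of the 67 in the table were above the filter, and 20 were at 0 in all 8 livers. As deposited 8 of the 9 were higher at 3 weeks, and centred 6 were. Hist1h1c, a linker histone, was 21.9, 23.4, 27.1 and 24.8 RPKM at 2 weeks and 36.3, 31.8, 28.2 and 35.6 RPKM at 3 weeks, against 15.8 to 22.6 RPKM in the controls. The groups did not overlap, and its difference was 0.43 ± 0.11 (SE) as deposited and 0.29 ± 0.11 (SE) centred (limma, adjusted p = 0.458 and 0.875; 0.0856 to 0.999 over the alternatives). Hist3h2a (31.5% of its 50-base words shared) was 1.06 ± 0.192 and 1.62 ± 0.311 RPKM (SD, n = 4), without overlap. Hist1h2bc, the most abundant, stayed at 104 to 167 RPKM in the 8 livers with a centred difference of −0.01. The testis histone Hist1h2ba was the lowest, at −0.79 centred.

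**Figure D3:**
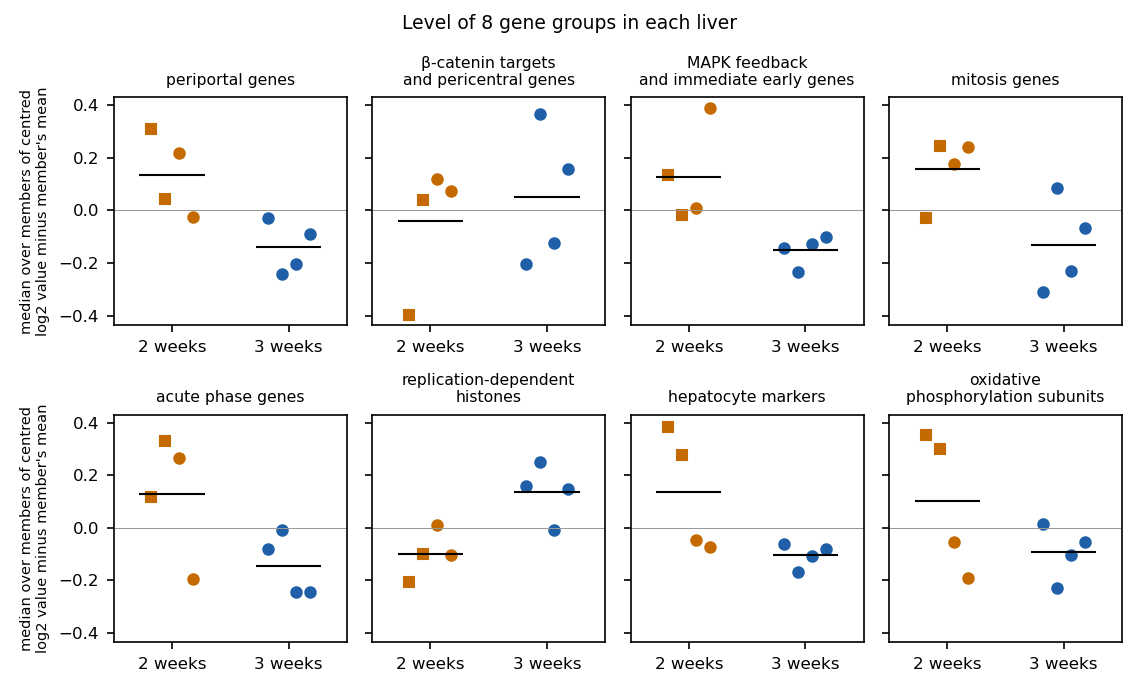
Level of 8 gene groups in each liver, as the median over the tested members of the centred log2 value minus that member's mean over the 8 livers. Orange marks 2 weeks and blue 3 weeks, squares are 2-week replicates 1 and 2, and horizontal lines are group means (n = 4). In the MAPK panel all 3-week livers are below −0.10 and all 2-week livers above −0.02. In the panels of hepatocyte markers and oxidative phosphorylation, the high 2-week livers are replicates 1 and 2.

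The 18 hepatocyte markers had a relative shift of −0.24 (spread 0.17) with all livers and −0.11 without 2-week replicates 1 and 2. As deposited 12 were lower at 3 weeks, and centred 17 were. Their summed level was 128580, 121596, 105641 and 98505 RPKM at 2 weeks and 99637, 92127, 97098 and 103752 RPKM at 3 weeks, against 116769 to 123947 RPKM in the controls. Albumin (Alb), the most abundant, was 45020, 47590, 46570 and 37300 RPKM at 2 weeks and 37070, 32940, 42310 and 40940 RPKM at 3 weeks, a difference of −0.20 as deposited and −0.35 centred. Apoa1, the main protein of HDL, was 16040, 15520, 9620 and 10580 RPKM at 2 weeks and 9088, 10050, 8723 and 9979 RPKM at 3 weeks, so the gap came from 2-week replicates 1 and 2. The sign of the hepatocyte list was not kept with quantile normalization, where its relative shift was 0.01.

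The acute phase genes, which the liver turns on under interleukin-6 and interleukin-1, had a relative shift of −0.33 (spread 0.19), and −0.22 without 2-week replicates 1 and 2. All 23 were tested, and 19 were lower at 3 weeks as deposited and 20 centred. The level of the list was 0.12, 0.33, 0.26 and −0.20 at 2 weeks and −0.08, −0.01, −0.24 and −0.25 at 3 weeks. Hpx, the haem carrier and the most abundant member, was 2952, 4335, 2972 and 2576 RPKM at 2 weeks and 2865, 2656, 2225 and 2611 RPKM at 3 weeks. The lowest members were the metallothionein Mt2, at −1.18 centred, and Hamp2, a paralogue of hepcidin, at −1.10. Mt2 was 11.5, 15.5, 128 and 10.5 RPKM at 2 weeks, so this value rested on replicate 3. Hepcidin itself, encoded by Hamp and the regulator of iron uptake, went against the list. It was 374, 695, 423 and 450 RPKM at 2 weeks and 1558, 846, 2192 and 1199 RPKM at 3 weeks, against 681, 1063 and 497 RPKM in the controls. The groups did not overlap as deposited and did after centring, and the difference was 1.53 as deposited and 1.39 centred. Complement and coagulation factors, 39 of 39 tested, had a relative shift of −0.22 (spread 0.12) and of −0.08 without 2-week replicates 1 and 2. As deposited 30 and centred 38 were lower at 3 weeks, the exception being Hc, complement C5, and Fgb, the fibrinogen chain and most abundant member, was the lowest at −0.37 centred.

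Enzymes of drug metabolism behaved in part like these. Of the cytochrome P450 families 1 to 4, 56 of 78 were tested, with a relative shift of −0.16 (spread 0.09), and −0.12 without 2-week replicates 1 and 2. Cyp4a14, a fatty acid hydroxylase, was lowest at −1.51 centred, and Cyp2c39 was highest at 0.34. The conjugating enzymes of the GST, UGT and SULT families, 42 of 59 tested, had −0.06 (spread 0.07) and −0.02. Gstm1, the most abundant, was 1200 ± 173 and 1240 ± 301 RPKM (SD, n = 4).

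The 25 genes of cholesterol synthesis and other SREBP2 targets had a relative shift of −0.31 (spread 0.28), and −0.15 without 2-week replicates 1 and 2. As deposited 19 were lower at 3 weeks and 4 of them had an unadjusted p under 0.05, and centred 23 were lower, 8 of them under 0.05, against 0.853% and 3.44% of all tested genes lower at this p. Hmgcs1, which makes the precursor of mevalonate, was the lowest member, with 101, 158, 59.2 and 87.3 RPKM at 2 weeks and 50.4, 55.3, 76.6 and 50 RPKM at 3 weeks. Its centred difference was −0.88 ± 0.29 (SE). Fdps, Fdft1 and Sqle, which lead from isoprenoids to squalene epoxide, stood at −0.59, −0.54 and −0.48 centred. The list was high in 2-week replicates 1 and 2, at 0.27 and 0.54, and low in 3-week replicate 2, at −0.55.

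The 17 fatty acid synthesis genes had a relative shift of 0.06 (spread 0.57), and −0.29 without 2-week replicates 1 and 2. They varied more between livers of the same time point than between the times. Scd1, the fatty acid desaturase, was 491, 513, 1304 and 1004 RPKM at 2 weeks and 622, 467, 3480 and 1645 RPKM at 3 weeks. Thrsp, a lipogenic protein and the most abundant member, ran from 816 to 2460 RPKM at 2 weeks and from 608 to 3126 RPKM at 3 weeks. Fatty acid oxidation and PPARα targets, 24 genes, had a relative shift of −0.03 (spread 0.12) and 0.03 without 2-week replicates 1 and 2.

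The 13 genes of bile acid synthesis and transport had a relative shift of −0.13 (spread 0.16), and −0.07 without 2-week replicates 1 and 2. Slc10a1, which takes bile acids up from blood, was 314, 291, 290 and 315 RPKM at 2 weeks and 271, 257, 257 and 276 RPKM at 3 weeks, against 297 to 341 RPKM in the controls. All 3-week livers lay below all others in both scalings, and the difference was −0.19 ± 0.08 (SE) as deposited and −0.33 ± 0.10 (SE) centred (limma, adjusted p = 0.484 and 0.869; 0.254 to 0.999 over the alternatives). Cyp7a1, the rate-limiting enzyme of bile acid synthesis, was the highest member at 0.44 centred, and Cyp8b1, which directs the product to cholic acid, the lowest at −0.79, both with overlapping groups.

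Of the genes of glucose metabolism, 15 of 18 glycolysis genes were tested, with a relative shift of −0.17 (spread 0.10), and −0.16 without 2-week replicates 1 and 2. As deposited 10 and centred 11 were lower at 3 weeks. Gpi1, which isomerises glucose 6-phosphate, was the lowest at −0.40 centred. The 8 gluconeogenesis genes had a relative shift of −0.19 (spread 0.21), and −0.47 without 2-week replicates 1 and 2, with all 8 lower after centring. By mean level the difference was −0.23, and −0.37 without these 2 livers, which is beyond the spread. The glucose phosphatase gene G6pc was 78.9, 334, 247 and 305 RPKM at 2 weeks and 138, 136, 198 and 94.8 RPKM at 3 weeks. It was low in 2-week replicate 1 and high in the other 3 livers of that time.

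The genes of basic cell machinery show how far 2 livers can set a group's value. Oxidative phosphorylation subunits, 76 of 84 tested, had a relative shift of −0.20 (spread 0.20) with all livers, 0.00 without 2-week replicates 1 and 2 and −0.42 without replicates 3 and 4. Ndufa8, a subunit of complex I, had livers that did not overlap in either scaling, at 139, 131, 134 and 131 RPKM at 2 weeks and 129, 129, 119 and 127 RPKM at 3 weeks. Cytosolic ribosomal proteins, 70 of 80 tested, went in the same way from −0.13 (spread 0.13) to 0.02. Proteasome subunits, 37 of 39 tested, went from −0.08 (spread 0.15) to 0.08. Rpl8 and Psmb4, the most abundant of these lists, were 343 ± 37.4 and 334 ± 20.2 RPKM, and 153 ± 20.2 and 160 ± 1.80 RPKM, at 2 and 3 weeks (SD, n = 4). The 20 aminoacyl-tRNA synthetases stood at 0.00 (spread 0.09) and 0.07, and Nars, the asparagine enzyme, was 51.6 ± 5.32 and 57.1 ± 2.66 RPKM (SD, n = 4).

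The 28 tested hnRNP and SR splicing factors had a relative shift of 0.07 (spread 0.07), and 0.01 without 2-week replicates 1 and 2. Hnrnpa2b1, the most abundant, was 90.3 ± 13.1 and 93.0 ± 12.9 RPKM (SD, n = 4). The Zfp genes are a family by name, most of them DNA-binding zinc finger proteins, and 250 of 354 were tested. Their relative shift was 0.07 (spread 0.03), and 0.03 without 2-week replicates 1 and 2. As deposited 225 of the 250 were higher at 3 weeks, and centred 162 were. As deposited, 22 lay above all 2-week livers and 0 below, and after centring 4 lay above and 4 below, against 6.11% and 0.346% and then 1.28% and 1.82% of all tested genes. Zfp672 was 3.15, 2.53, 2.99 and 2.99 RPKM at 2 weeks and 5.04, 4.79, 4.23 and 4.23 RPKM at 3 weeks, against 3.05 to 4.04 RPKM in the controls. Its groups did not overlap, and the difference was 0.57 ± 0.12 (SE) as deposited and 0.43 ± 0.11 (SE) centred (limma, adjusted p = 0.458 and 0.869; 0.0844 to 0.999 over the alternatives). Zfp553 and Zfp629 also lay apart in both scalings, with 0.32 and 0.27 centred. The lowest member was Zfp36 at −0.58 centred, an RNA-binding protein of the early response and not a DNA-binding factor.

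Short noncoding RNAs, listed in the table as snoRNA and microRNA genes, were tested for 102 of 766 names, and 577 were at 0 in all 8 livers. Their relative shift was 0.14 (spread 0.28), and −0.05 without 2-week replicates 1 and 2. Most of these genes lie inside longer transcripts, so reads listed for them may come from the host. Snora70 was 0.439, 1.72, 3.72 and 3.36 RPKM at 2 weeks and 7.39, 7.89, 8.34 and 6.54 RPKM at 3 weeks, against 2.37 to 5.90 RPKM in the controls. Snord99 was 2.98 ± 0.912 and 8.23 ± 3.73 RPKM (SD, n = 4). Mir3101 was 2.57, 1.26, 1.64 and 0 RPKM at 2 weeks and 3.25, 6.06, 4.51 and 5.39 RPKM at 3 weeks. The groups did not overlap for the 3 genes, and all of their 50-base words (100%) occur in other genes as well. As deposited, 6 of the 102 lay above all 2-week livers and 0 below, against 6.11% and 0.346% of all tested genes. After centring, 3 lay above and 1 below, against 1.28% and 1.82%. The annotated Mir3101 hairpin lies at chr7:27176006-27176093 (GRCm38). Its mature sequences in RefSeq (GRCm38.p6) are shown because this was the only microRNA among the 16 largest differences of genes whose livers did not overlap in either scaling, with the seed, bases 2 to 8, in capitals. The library was not a small RNA library, so the values do not measure these mature forms.
mmu-miR-3101-3p: uAGCUUUGguggauggucuuu
mmu-miR-3101-5p: gGUACCAUugacuaaagcuag

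Markers of other cell types were followed because bulk liver holds them, and summed levels cover every listed gene in the table. The 19 tested macrophage markers, of 22, had a relative shift of 0.07 (spread 0.20), and 0.15 without 2-week replicates 1 and 2. Their summed level was 318, 428, 402 and 287 RPKM at 2 weeks and 352, 449, 332 and 417 RPKM at 3 weeks, against 284 to 311 RPKM in the controls, with Lyz2 (lysozyme) the most abundant gene. Of the T, NK and B cell markers 9 of 23 were tested, with a relative shift of 0.05 (spread 0.24) and 0.34. Their sum was 12, 16, 9.37 and 8.01 RPKM at 2 weeks, 11.6, 11.7, 16.3 and 13.4 RPKM at 3 weeks and 5.42 to 6.65 RPKM in the controls. The most abundant was the chemokine Ccl5, at 3.08 ± 1.97 and 2.85 ± 1.24 RPKM (SD, n = 4). The defining markers Cd3e, Cd8a and Ms4a1 were below the filter but not at 0 in every liver, and Trbc2, Ighm and Igkc were not in the table.

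MHC class II genes, which present antigen on macrophages, dendritic cells and B cells, were tested for 6 of 7. Their relative shift was 0.09 (spread 0.40), and 0.37 without 2-week replicates 1 and 2. All 6 were higher at 3 weeks in both scalings. The summed level was 174, 299, 217 and 131 RPKM at 2 weeks and 194, 243, 243 and 243 RPKM at 3 weeks, against 72.8 to 85.1 RPKM in the controls. The 3-week livers lay inside the wide range of the 2-week livers. Cd74, the invariant chain and most abundant member, was 74.2, 119, 91.6 and 61.9 RPKM at 2 weeks and 89.2, 103, 103 and 103 RPKM at 3 weeks. MHC class I and antigen processing genes, 22 of 28 tested, had a relative shift of −0.12 (spread 0.19), and 0.01 without 2-week replicates 1 and 2. B2m, the common light chain, was 2180 ± 264 and 1970 ± 95.6 RPKM (SD, n = 4). The 34 tested interferon-induced genes had a relative shift of 0.03 (spread 0.16), and 0.13 without 2-week replicates 1 and 2. Their members spread widely, from the chemokine Cxcl10 at −0.95 centred to Usp18, which removes ISG15 from proteins, at 0.54. Bst2, the most abundant, was 185 ± 28.1 and 179 ± 27.9 RPKM (SD, n = 4).

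Only 3 of 12 neutrophil markers were tested, with a relative shift of 0.13 (spread 0.50) and −0.38 without 2-week replicates 1 and 2. Their sum was 4.89, 6.69, 14.6 and 10 RPKM at 2 weeks and 12.8, 12.8, 13.5 and 5.49 RPKM at 3 weeks, with S100a9 the most abundant. Stellate cell and collagen matrix genes, 18 of 20 tested, stood at −0.05 (spread 0.12) and −0.13. Dcn (decorin), the most abundant, was 40.4, 52.4, 55.8 and 49.7 RPKM at 2 weeks and 65.2, 60.8, 64.8 and 65.8 RPKM at 3 weeks, against 66.0 to 75.3 RPKM in the controls. Its groups did not overlap as deposited but did after centring, where Sparc, another matrix protein, lay lower at 3 weeks at −0.41. The sum of the list was 168, 184, 235 and 203 RPKM at 2 weeks and 210, 217, 190 and 223 RPKM at 3 weeks. The 19 endothelial markers stood at 0.01 (spread 0.14) and −0.09, with a sum of 132, 131, 177 and 163 RPKM at 2 weeks and 173, 165, 153 and 175 RPKM at 3 weeks. Clec4g, a lectin of sinusoidal endothelium, was the most abundant. Cholangiocyte and progenitor markers, 4 of 10 tested, had −0.25 (spread 0.21), and −0.35 without 2-week replicates 1 and 2. Their sum was 42.4, 29.6, 42.3 and 48.7 RPKM at 2 weeks and 35.2, 50, 29.4 and 35.4 RPKM at 3 weeks, most of it Spp1 (osteopontin), while Krt7, Epcam and Sox9 were below the filter. Of these untested markers Epcam had means of 0.341 and 0.650 RPKM at 2 and 3 weeks and Krt7 0.409 RPKM at both. The part that these cells play in the other groups' shifts was not tested.

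The 17 tested genes of ER stress and the integrated stress response had a relative shift of 0.01 (spread 0.26), and −0.05 without 2-week replicates 1 and 2. Its members went both ways, from the pseudokinase Trib3 at −0.72 centred to the ER protein Creld2 at 0.84. Hspa5, the ER chaperone BiP, was 273, 595, 446 and 359 RPKM at 2 weeks and 566, 520, 454 and 475 RPKM at 3 weeks. The 10 heat shock proteins stood at 0.03 (spread 0.35) and −0.15, and Hspd1, the mitochondrial chaperonin, was 64.4 ± 10.3 and 72.4 ± 6.22 RPKM (SD, n = 4). The 16 tested clock genes stood at 0.04 (spread 0.13) and −0.14. Dbp, whose transcript swings strongly with the hour, was 131, 84.2, 31.3 and 117 RPKM at 2 weeks and 107, 93.8, 48.5 and 84.9 RPKM at 3 weeks, so single livers of the same time point differed more than the groups did.

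Mouse liver also differs by sex through the pattern of growth hormone, and all mice here were male. The 13 tested female-biased genes, of 21, had a relative shift of −0.53 (spread 0.52), and −0.58 without 2-week replicates 1 and 2. As deposited 8 and centred 9 were lower at 3 weeks. The level of the list was −0.07, 0.43, 1.06 and −0.43 at 2 weeks and −0.44, 0.25, 0.06 and −0.47 at 3 weeks, so the groups overlapped, and the difference of mean levels, −0.40, was within the spread. A1bg was 17.1, 23.7, 37.2 and 14.6 RPKM at 2 weeks and 9.02, 14.9, 12.2 and 20.5 RPKM at 3 weeks, a centred difference of −0.80 ± 0.31 (SE). The groups overlapped, and both lay far above the 0.272 to 0.418 RPKM of the controls. Cyp17a1 went the other way, at 1.05 centred. Cyp2c69, the most abundant, was 22.3 ± 8.84 and 16.7 ± 7.56 RPKM (SD, n = 4), and 54.3% of its 50-base words occur in other genes. The 18 tested male-biased genes stood at −0.22 (spread 0.60), and 0.07 without 2-week replicates 1 and 2. Mup3, a pheromone carrier and the most abundant, was 8980 ± 1080 and 8820 ± 882 RPKM (SD, n = 4).

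The single genes with the largest differences were taken from those whose livers did not overlap in either scaling. None passed adjustment over all genes. Prelid2, a member of the PRELI family of lipid transfer proteins on chromosome 18 (41875696 to 41951194), had the smallest adjusted p of all genes. It was 5, 2.5, 2.39 and 3.81 RPKM at 2 weeks and 0.263, 0.201, 0.939 and 0 RPKM at 3 weeks, against 3.31, 2.89 and 2.02 RPKM in the controls. The 3-week livers thus lay below both other groups. The difference was −2.27 ± 0.32 (SE) as deposited and −2.41 ± 0.33 (SE) centred (limma, adjusted p = 0.333 and 0.299). Over the alternatives its adjusted p ran from 0.0352, after centring without 3-week replicate 3, to 0.802.

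Nr4a1, an orphan nuclear receptor induced within minutes (chromosome 15, 101253902 to 101274795), was 4.84, 19.8, 1.65 and 7.98 RPKM at 2 weeks and 0.404, 0.841, 0.869 and 0.319 RPKM at 3 weeks, against 0.288 to 2.32 RPKM in the controls. Its difference was −2.63 ± 0.55 (SE) as deposited (limma, adjusted p = 0.458 and, centred, 0.680; 0.0548 to 0.999 over the alternatives). Igfbp1, which binds insulin-like growth factors and is repressed by insulin (chromosome 11, 7197787 to 7202546), was 20.4, 94.6, 299 and 19.2 RPKM at 2 weeks and 2.89, 15.9, 11.4 and 8.78 RPKM at 3 weeks. The spread at 2 weeks was wide, and the controls had 7.61 to 22 RPKM. Ppp1r3g, a glycogen-targeting subunit of protein phosphatase 1 (chromosome 13, 35958824 to 35970388), was 2.18, 6.41, 7.28 and 1.71 RPKM at 2 weeks and 0.103, 0.147, 1.40 and 0.411 RPKM at 3 weeks. For Nr4a1, Igfbp1 and Ppp1r3g the 3-week livers lay within or below the range of the controls, and the highest 2-week livers lay far above it. Arl4d, a small GTPase of the ARF family, was 26.4, 37.7, 23.1 and 18.9 RPKM at 2 weeks and 17.8, 12.2, 10.2 and 8.05 RPKM at 3 weeks. Rps4y2 (14.9% of its 50-base words shared) and Gm5480 completed the list with centred differences of −1.22 and −1.33.

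Some of these transcripts are known to respond to cyclic AMP through the factor CREB, whose palindromic site reads TGACGTCA on both strands. This motif, the only one searched, occurs in 588 of 32851 RefSeq promoters of 300 bases (1.79%), from 250 bases before to 50 bases after the gene start. Of the 8 genes furthest below 0 in this set, 5 had a promoter in the table and 1 held the motif, Arl4d. Of the 8 genes furthest above it, 4 had a promoter and 1 held it, Clstn3, and of the 16 tested MAPK and immediate early genes 10 had a promoter and 1 held it, Dusp1. Btg2, looked at because its livers lay apart, held it as well. The promoters of Btg2 (chr1:134079106-134079405, minus strand) and Arl4d (chr11:101665291-101665590, plus strand) are shown from RefSeq (GRCm38.p6), 5′ to 3′, as those of a p53 target and a strongly lower gene that hold the motif, which is in capitals and begins at base 85 and base 225. A match is a description of the letters and does not show that a factor was bound.
Btg2: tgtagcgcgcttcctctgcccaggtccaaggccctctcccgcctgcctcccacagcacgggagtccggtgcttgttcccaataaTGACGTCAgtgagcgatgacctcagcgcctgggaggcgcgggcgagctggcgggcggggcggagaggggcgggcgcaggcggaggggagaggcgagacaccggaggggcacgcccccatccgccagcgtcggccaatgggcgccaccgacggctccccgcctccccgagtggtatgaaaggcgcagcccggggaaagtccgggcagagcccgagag
Arl4d: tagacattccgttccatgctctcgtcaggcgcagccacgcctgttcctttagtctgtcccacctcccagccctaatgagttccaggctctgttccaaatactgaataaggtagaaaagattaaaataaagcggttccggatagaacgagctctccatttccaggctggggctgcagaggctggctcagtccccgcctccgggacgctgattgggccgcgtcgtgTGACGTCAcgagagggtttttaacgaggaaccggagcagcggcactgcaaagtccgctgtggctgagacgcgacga

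Among the largest differences above 0, Car4, a membrane-bound carbonic anhydrase (chromosome 11, 84957754 to 84966054), was listed at 0, 0.085, 0.406 and 0 RPKM at 2 weeks and at 1.06, 2.12, 1.87 and 7.26 RPKM at 3 weeks, against 0, 0 and 0.270 RPKM in the controls. Its 2-week values lay around the limit of 3 reads, so no fold is given. Pnliprp1, a relative of pancreatic lipase, was 0, 0.502, 0.207 and 1.07 RPKM at 2 weeks and 1.5, 5.06, 1.15 and 3.09 RPKM at 3 weeks. In the controls it was at most 0.031 RPKM. Nrep, a neuronal regeneration-related protein on chromosome 18 (33437019 to 33464365), was 23.6, 18, 24.4 and 26.6 RPKM at 2 weeks and 69.8, 41.1, 41.5 and 35.6 RPKM at 3 weeks, against 18.8 to 25.4 RPKM in the controls. Here the 2-week livers lay with the controls and all 3-week livers above them, and the difference was 0.97 ± 0.20 (SE) as deposited and 0.82 ± 0.20 (SE) centred (limma, adjusted p = 0.458 and 0.782; 0.0814 to 0.999 over the alternatives). Rasl11b, a RAS-like GTPase (chromosome 5, 74195326 to 74199477), was 1.28, 1.02, 1.11 and 1.29 RPKM at 2 weeks and 2.53, 2.49, 2.43 and 4.80 RPKM at 3 weeks, against 0.519 to 0.960 RPKM in the controls. Clstn3, a calsyntenin (chromosome 6, 124430756 to 124464784), was 0.875, 1.49, 1.39 and 1.51 RPKM at 2 weeks and 3.94, 2.29, 4.01 and 2.15 RPKM at 3 weeks, against 1.18 to 1.76 RPKM in the controls. For Nrep, Rasl11b and Clstn3 the differences as deposited without 2-week replicates 1 and 2 were 0.82, 1.02 and 0.84, close to those with all livers.

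**Figure D4:**
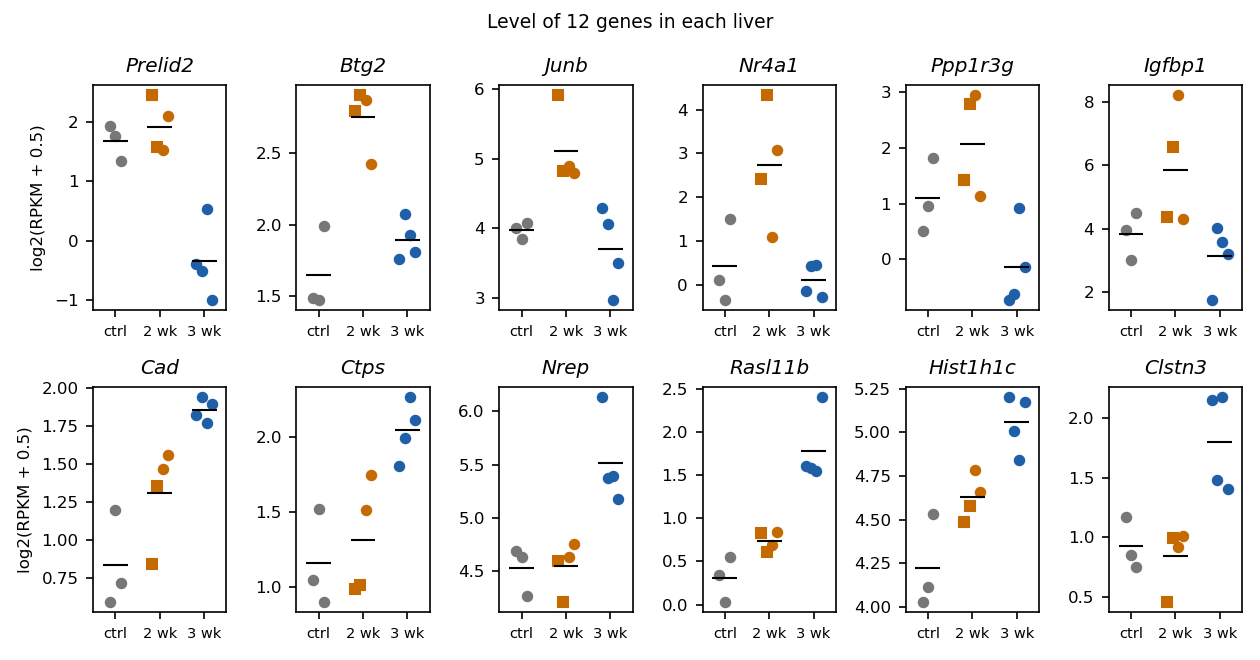
Level of 12 genes in each liver as log2(RPKM + 0.5), for 3 vector control livers (ctrl, grey), 4 livers at 2 weeks (orange) and 4 at 3 weeks (blue). Squares are 2-week replicates 1 and 2, horizontal lines are group means of the log2 values, and the vertical scale differs between panels. The 12 genes were picked from those whose livers at 2 and 3 weeks do not overlap. Btg2 and Junb are high at 2 weeks alone, whereas Prelid2 is low at 3 weeks alone.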

How the data were processed

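The authors used HISAT2 for mapping to mm10 and featureCounts for counting, and deposited RPKM values for 11 livers, 1 column per mouse. The read totals and gene lengths behind them are not given. The methods give single reads of 50 bases but also name a paired-end module, so the read length is not certain. The methods name a stranded mRNA kit and the labels a kit that depletes ribosomal RNA, which would differ for transcripts without a poly(A) tail.

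From these values log2(RPKM + 0.5) was computed for the 8 oncogene livers and fitted with limma 3.58.1 in R 4.3.3 (intensity trend, two-sided, Benjamini-Hochberg over the 11259 genes averaging 0.5 RPKM or more), with and without centring each column on its median. The fit was tested on simulated data with a library shift of 0.15. Of 11059 unchanged genes it called 31 as simulated and 6 after centring, and of 100 genes changed by 2 on the log2 scale it called 96 in either case. Of 100 genes changed by 1 it called 79 as simulated and 82 after centring. The simulated noise was independent between genes, and all simulated libraries of a time point had the same shift, unlike the livers here. These counts therefore do not give the power of the test in these data. The members and the 43 gene lists were chosen with earlier results of these data known, so lists have no p-values. Named genes were 12 anchor genes, the 8 largest differences above and the 8 below 0 by centred difference among genes whose livers did not overlap in either scaling, and up to 3 such members of each list, or else its most abundant member. Other genes in the text are members chosen after their values were seen, as the extremes or best known genes of a list.

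Read totals were inferred as those at which low values of single-exon genes (under 40 reads) fell on whole reads within 0.02 reads, which held for 34.8% to 43.4% of such values against a median of 2.87% to 3.49% over the totals tried. Names were matched to gene symbols for 21962 current and 1288 older symbols of 23393, and 143 matched none. Shared 50-base words were counted among annotated transcripts. Gene coordinates are those of GRCm38, the assembly of mm10. Python 3.11.15, numpy 2.4.6, pandas 2.3.3 and matplotlib 3.10.9 were used. No column of the table was left unassigned.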

Additional observations from a re-analysis of the deposited data

Results flagged for a closer look

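In 9 of 140 groups of 4 livers (70 named genes at 2 times) 1 liver lay far from the other 3, where chance gives about 7. At 2 weeks these were replicate 1 with 60.04 RPKM of Junb, which was high, and 62.78 RPKM of Ctnnb1, which was low, replicate 2 with 5.715 RPKM of Aen, which was low, and replicate 4 with 15.75 RPKM of Met, which was high. At 3 weeks they were replicate 1 with 69.79 RPKM of Nrep, which was high, and 89.17 RPKM of Cd74, which was low. Replicate 2 was high in Aen, with 10.55 RPKM, and in Fgb, with 3546 RPKM, and replicate 4 was high in Rasl11b, with 4.802 RPKM. No liver was left out for these values, and their cause was not tested.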

How the results depend on the processing

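The number of genes that passed was 0 with all 8 livers and stayed 0 with pseudocounts of 0.1 and 1, no filter, a mean RPKM of at least 2, no intensity trend, all 11 libraries in one fit, quantile normalization and median centring. With the replicate block, which takes livers of the same replicate number as pairs, it was 1 (8430408G22RIK), and with the replicate block after centring 2 (8430408G22RIK and Rps4y2). No label states that mice of the same replicate number belong together. Their mouse numbers are consecutive between the time points for replicates 3 and 4, but not for replicates 1 and 2. What this reflects was not tested. The correlation of deviations between livers of the same number was 0.21, 0.03, 0.28 and 0.07 for replicates 1 to 4. Between livers of different numbers it ran from −0.23 to 0.13. Without 2-week replicates 3 and 4 it was 21. With 1 liver left out it ran from 0 to 1.

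The median log2 difference over all tested genes was 0.123. It was −0.0225 after centring, −0.0225 with the replicate block after centring, 0.00766 with quantile normalization and −0.00208 without 2-week replicates 1 and 2 after centring. With 1 liver left out it ran from −0.0304 (centred) to 0.156 (as deposited). In each case the cause of the shift was not tested, apart from centring and quantile normalization, which remove it by construction.

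Of 43 gene lists, 16 kept the sign of their relative shift in all 29 alternatives, 13 below and 3 above the other genes, and 27 changed sign in at least 1. By more than 1 SD, 17 moved in at least 1 alternative, and 1, pyrimidine synthesis, with 1 liver left out. Of 70 named genes, 43 kept the sign of their relative difference in every alternative, and 4 passed in at least 1. The 16 genes with the largest differences were among the 43. They were chosen because their livers did not overlap, so leaving livers out could hardly reverse their sign. Depth limits genes near 0.1 RPKM, where 3 reads on 1000 bases equal 0.111 to 0.170 RPKM.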

Other observations

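Some genes that liver is known to express strongly were listed at or near 0 in all 8 livers. Ass1, an enzyme of the urea cycle, had means of 0.249 RPKM at 2 weeks and 0.133 RPKM at 3 weeks, whereas Asl, the next enzyme, was at 309 to 560 RPKM. Rpl26, Ndufs5 and Eno1 were listed at 0, and Gapdh was at 0.360 to 2.82 RPKM. Gapdh passed the filter, as did Rpl3, at 0.712 and 0.990 RPKM, and Rps7, at 0.714 and 0.695 RPKM, so such genes enter the shifts of their lists. How these values arose was not tested.

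Some of the named genes had a higher mean at 2 weeks than in the controls and at 3 weeks, an order shared by 2020 of the 11259 tested genes. Nr4a1, Junb and Btg2 had 2-week means of 8.56, 36.1 and 6.29 RPKM, against 1.06, 15.2 and 2.69 RPKM in the controls and 0.608, 13.3 and 3.23 RPKM at 3 weeks. Igfbp1 had 108, 15.0 and 9.76 RPKM in the same order. The 2-week means of Igfbp1 and Nr4a1 rested most on 1 liver each, replicate 3 at 299 RPKM and replicate 2 at 19.8 RPKM. In 2-week replicates 1 and 4 Igfbp1 was 20.4 and 19.2 RPKM, within the control range of 7.61 to 22 RPKM. The higher mean at 2 weeks was seen after the values were known, and the controls belong to another mouse number series.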
